A study of Homo sapiens with 4 samples.

Results

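TP63, which encodes p63, and 8 transcription regulators of the squamous lineage (TRIM29, BNC1, PITX1, KLF4, KLF5, TFAP2A, TFAP2C and ZNF750) were followed on the arrays of the series through every probe that the platform annotation names with 1 of these symbols. The rule found 19 probes for 8 of the 9 genes, among 48801 probes and 18852 named genes. No probe is named TP63 in that annotation, so no value is given for TP63, and 20692 probes carry no name in it. The samples came from H520 and LK2, 2 human cell lines of squamous lung carcinoma, in 4 groups of 1 array each: H520 with a pool of siRNAs against SOX2 (siSOX2), H520 with scrambled control siRNAs, LK2 with siSOX2 and LK2 with control siRNAs, all harvested 48 h later. Both lines are established cultures, and no untransfected array was used here. The arrays were Illumina HumanHT-12 v3 BeadChips.

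In stratified epithelia p63 is the regulator that establishes and maintains basal cells. It acts with AP-2 factors (TFAP2A, TFAP2C) and Kruppel-like factors (KLF4, KLF5), and in keratinocytes it switches on ZNF750, a zinc finger factor of terminal differentiation that in turn induces KLF4. SOX2 lies in the same chromosome arm as TP63, is often amplified with it in squamous lung cancer, and binds many sites together with p63. The comparisons address whether these regulators changed when SOX2 was lowered, and whether the lines carried them alike.

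Start regions are shown for 2 members: TFAP2A, whose probes are annotated to different transcripts and disagreed, and KLF5, whose single probe was higher with siSOX2 in both lines. RefSeq's table for GRCh38.p14 gave 9 windows for 6 of the 9 listed genes, each with 250 bases before and 50 after a gene start. Capitals mark the 5 letters ACAAT or their reverse complement ATTGT, the core that SOX factors recognise, searched on both strands. All are written 5′ to 3′ on the gene's strand.
TFAP2A, chr6:10419610-10419909, minus strand: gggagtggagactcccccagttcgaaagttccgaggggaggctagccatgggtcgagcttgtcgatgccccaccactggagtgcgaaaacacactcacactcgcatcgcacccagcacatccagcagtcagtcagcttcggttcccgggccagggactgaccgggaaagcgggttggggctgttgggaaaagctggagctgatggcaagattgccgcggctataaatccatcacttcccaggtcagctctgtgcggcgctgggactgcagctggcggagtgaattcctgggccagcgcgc
TFAP2A, chr6:10412342-10412641, minus strand: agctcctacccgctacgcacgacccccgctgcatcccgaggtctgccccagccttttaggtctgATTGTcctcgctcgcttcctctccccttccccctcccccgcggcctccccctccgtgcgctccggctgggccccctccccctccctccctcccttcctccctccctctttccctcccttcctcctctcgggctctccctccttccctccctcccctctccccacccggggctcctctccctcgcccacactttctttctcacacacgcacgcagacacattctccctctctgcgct
KLF5, chr13:73054726-73055025, plus strand: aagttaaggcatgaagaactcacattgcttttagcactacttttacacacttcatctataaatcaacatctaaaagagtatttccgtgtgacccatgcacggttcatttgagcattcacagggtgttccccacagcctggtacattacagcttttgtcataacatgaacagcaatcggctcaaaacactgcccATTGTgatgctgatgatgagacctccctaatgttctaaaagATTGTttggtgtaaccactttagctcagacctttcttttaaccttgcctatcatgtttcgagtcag
KLF5, chr13:73058755-73059054, plus strand: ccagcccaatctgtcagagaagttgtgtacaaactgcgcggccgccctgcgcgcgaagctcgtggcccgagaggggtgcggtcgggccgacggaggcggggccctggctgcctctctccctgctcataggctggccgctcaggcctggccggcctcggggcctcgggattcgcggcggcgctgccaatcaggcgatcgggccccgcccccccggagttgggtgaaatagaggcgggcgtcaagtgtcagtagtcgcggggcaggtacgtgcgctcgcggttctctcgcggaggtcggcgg

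The core was found once in the second TFAP2A window, at 2 places in the first KLF5 window, and nowhere in the other windows of these genes, of KLF4, PITX1, BNC1 or TP63. It is held by 27.4% of all 35116 windows. In the first KLF5 window one copy lies within AACAAT, written there as ATTGTT, which 10.1% of all windows hold. The other lies within ATTGTNATG, a SOX core beside part of an octamer-type site, which 0.877% of all windows hold. The longer patterns contain the core. A match of letters is a description of these windows and does not show a bound site.

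Values are the authors' processed log2 values, which are centred per probe against a baseline that is not given in the sources used here. They show how a probe differs between arrays and give no level, and no probe can be set against another. Whether a member probe lay above background was not available. An error after ± is the standard error of a limma fit over all probes and all 4 arrays, with cell line and siRNA as factors. It has 1 residual degree of freedom per probe, which comes from how far the 2 lines disagreed in their response. A variance prior drawn from all probes adds 9.35 degrees of freedom, so each error rests mostly on that prior. Within a line there was 1 array per group and no test, and probes were counted at 1.5-fold (0.58 on the log2 scale). The labels do not say that arrays came from separate cultures, so p-values rest only on the spread between these arrays. That spread is taken over all probes more than at the probe itself.

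SOX2, the targeted gene, was lower on the siSOX2 array of each line by both probes, and more so in LK2. Its first probe stood at -0.21 with siSOX2 and 0.45 with control in H520, and at -2.04 and -0.14 in LK2. Its second stood at -0.54 with siSOX2 and 0.10 with control in H520, and at -1.91 and 0.42 in LK2. Over both lines the first probe fell by 1.28 ± 0.22 (limma, adjusted p = 0.0462), while the second, at -1.49 ± 0.28, missed the threshold (limma, adjusted p = 0.0684). The call of the first is lost with a robust variance prior (adjusted p = 0.783), over named probes alone (adjusted p = 0.127), with quantile normalization (adjusted p = 0.157), with both probes averaged (adjusted p = 0.33) and with line left out of the model. On the linear scale siSOX2 arrays held 26.9% and 19.9% of the control value in LK2 by the 2 probes, against 63.2% and 63.8% in H520. How far the difference in knockdown goes with the differences between lines described for the members was not tested.

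No member passed the test for the siRNA over both lines. Of 19 member probes, 0 were called higher and 0 lower by limma at an adjusted p of 0.05, where 0.191% of all probes were called higher and 0.172% lower. At an unadjusted p under 0.05 there was 1 member probe, that of ZNF750, against 3714 of all probes. The lowest adjusted p among the 19 was 0.353. The signs of the 2 lines agreed at 8 probes, with 5 higher and 3 lower in both, and were opposite at 11. Over all probes 24589 were higher and 24195 lower with siSOX2 in H520, and 23863 and 24931 in LK2. The share of all probes with opposite signs was not counted, so the 11 cannot be set against it.

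In H520 none of the 19 member probes reached 1.5-fold in either direction, where 0.59% of all probes were at least 1.5-fold higher and 0.742% lower with siSOX2. Their differences ran from -0.39 to 0.27, with a median of -0.13 and a median absolute size of 0.19, against a median of 0.00 and a median absolute size of 0.11 over all probes. In LK2 1 member probe, that of ZNF750, was at least 1.5-fold higher and 0 were lower, where 1.5% of all probes were higher and 0.93% lower. The other 18 ran from -0.15 to 0.42 in LK2. The median of all 19 there was 0.07, and their median absolute size 0.10, against -0.00 and 0.12 over all probes.

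**Figure D1:**
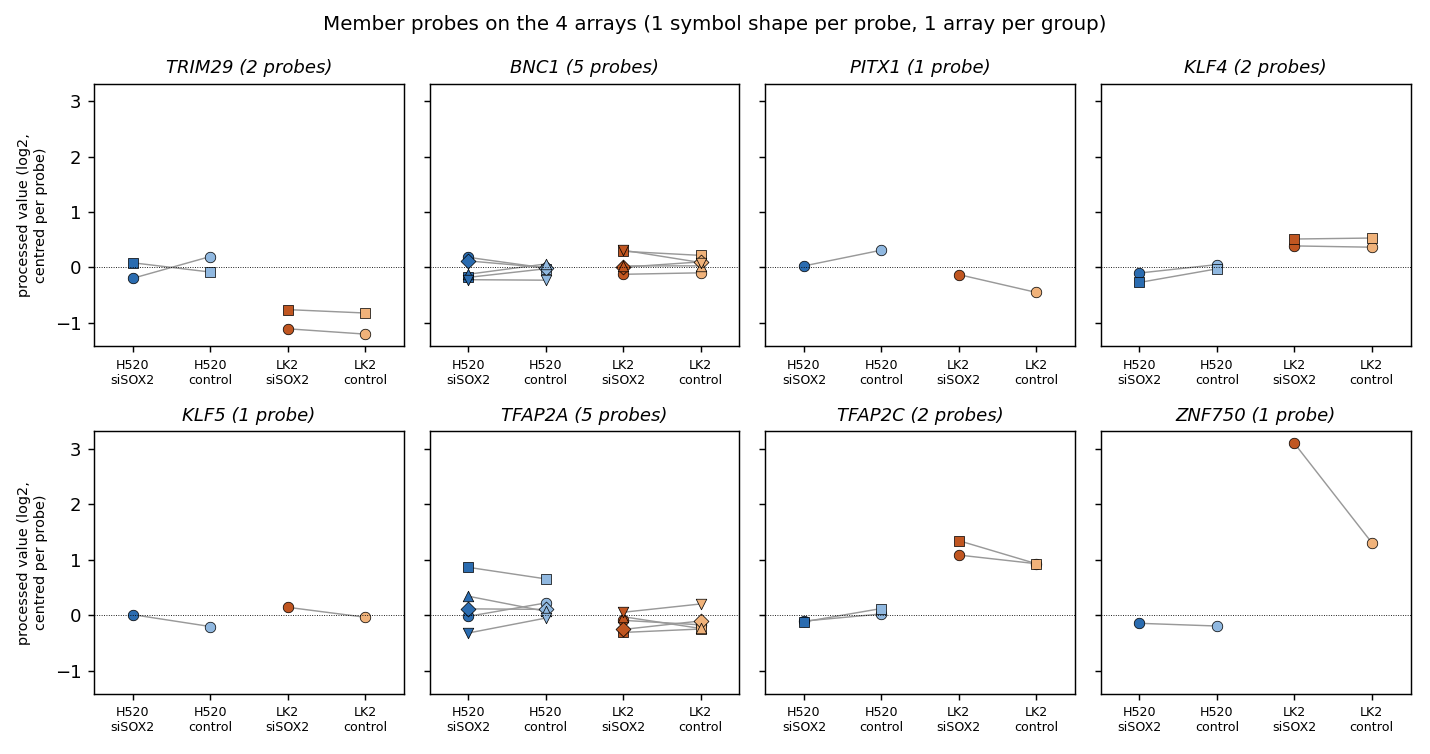
Processed log2 values (vertical axis, centred per probe) of the 19 member probes on the 4 arrays, with siSOX2 left of control in each line, 1 symbol shape per probe and grey lines joining the 2 arrays of a line. ZNF750 stands at 3.10 on the LK2 siSOX2 array and 1.31 on the LK2 control array, while TRIM29 lies lower and TFAP2C higher in LK2 than in H520 on both arrays.

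ZNF750, the differentiation factor downstream of p63, stood apart in LK2. Its 1 probe was at 3.10 with siSOX2 and 1.31 with control in LK2, and at -0.15 with siSOX2 and -0.20 with control in H520. The difference was 1.79 in LK2, or 3.47-fold, and 0.05 in H520. Among all 48801 probes it had rank 28 in LK2, counted from the largest increase. In H520 it lay at percentile 61.5 of all differences. Over both lines the estimate was 0.92 ± 0.29, and it did not pass (limma, adjusted p = 0.353, higher in 2 of 2 lines). With quantile normalization the estimate is 0.55. The mean rests on the LK2 pair alone: without it the value is 0.05. Whether the lines responded differently could not be tested, because each response is 1 pair of arrays.

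KLF4 and KLF5, the Kruppel-like members, were not called. KLF4, which drives barrier genes in suprabasal cells, has 2 probes. The first was at -0.10 with siSOX2 and 0.05 with control in H520, and at 0.39 and 0.36 in LK2. The second was at -0.27 and -0.03 in H520, and at 0.51 and 0.53 in LK2. Both were thus somewhat lower with siSOX2 in H520 and at 0.02 and -0.02 relative to the control in LK2, where ZNF750 was higher. Over both lines they were at -0.06 ± 0.11 and -0.13 ± 0.11 (limma, adjusted p = 0.973 and 0.909).

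KLF5, a factor of proliferating basal cells, was the only gene of the set apart from ZNF750 with every probe higher in both lines. Its 1 probe stood at 0.01 with siSOX2 and -0.21 with control in H520, and at 0.14 and -0.04 in LK2. The differences of 0.21 and 0.18 gave 0.20 ± 0.11 over both lines and did not pass (limma, adjusted p = 0.786, higher in 2 of 2 lines). They lay at percentiles 89.4 and 85.0 of all probes in H520 and LK2.

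The AP-2 genes gave no common direction. TFAP2A, an AP-2 factor of the early surface ectoderm, has 5 probes, annotated to 3 transcript accessions. With siSOX2 they ran from -0.27 to 0.27 in H520, 3 of them higher, and from -0.15 to 0.21 in LK2, 2 of them higher. The 2 probes of accession NM_003220 differed from each other in H520, at -0.24 and 0.27. The second NM_003220 probe came nearest to a change over both lines, at 0.24 ± 0.11, and 1 probe of NM_001032280 was at -0.21 ± 0.11 (limma, adjusted p = 0.659 and 0.762). The probes of TFAP2A therefore disagreed in sign in both lines.

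TFAP2C, another AP-2 factor of basal keratinocytes, was lower with siSOX2 in H520 and higher in LK2 by both probes. The first was at -0.11 with siSOX2 and 0.02 with control in H520, and at 1.09 and 0.93 in LK2. The second was at -0.12 and 0.12 in H520, and at 1.35 and 0.93 in LK2. The differences were -0.13 and -0.24 in H520 and 0.16 and 0.42 in LK2, and over both lines 0.01 ± 0.12 and 0.09 ± 0.15 (limma, adjusted p = 0.995 and 0.973). The 0.42 of the second probe was the largest LK2 difference after ZNF750, at percentile 97.0 of all probes.

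PITX1, a homeobox factor expressed in oral and other squamous epithelia, also went opposite ways. Its 1 probe stood at 0.03 with siSOX2 and 0.31 with control in H520, and at -0.13 and -0.45 in LK2. The control arrays were thus further apart than the siSOX2 arrays. The differences were -0.28 in H520 and 0.32 in LK2, and over both lines 0.02 ± 0.14 (limma, adjusted p = 0.994).

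TRIM29, a p63-associated protein of basal cells, and BNC1, a zinc finger factor of the basal layer, were not called, and the probes of each gene went both ways in H520. The first TRIM29 probe stood at -0.20 with siSOX2 and 0.20 with control in H520, and at -1.11 and -1.20 in LK2. The second stood at 0.08 and -0.08 in H520, and at -0.76 and -0.82 in LK2. In H520 the probes went opposite ways, at -0.39 and 0.17, and in LK2 they were at 0.10 and 0.06. The 5 BNC1 probes ran from -0.19 to 0.19 in H520, 3 of them higher, and from -0.10 to 0.22 in LK2, 2 of them higher. Over both lines the BNC1 estimates ran from -0.09 to 0.12, with adjusted p-values of 0.927 or more by limma.

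**Figure D2:**
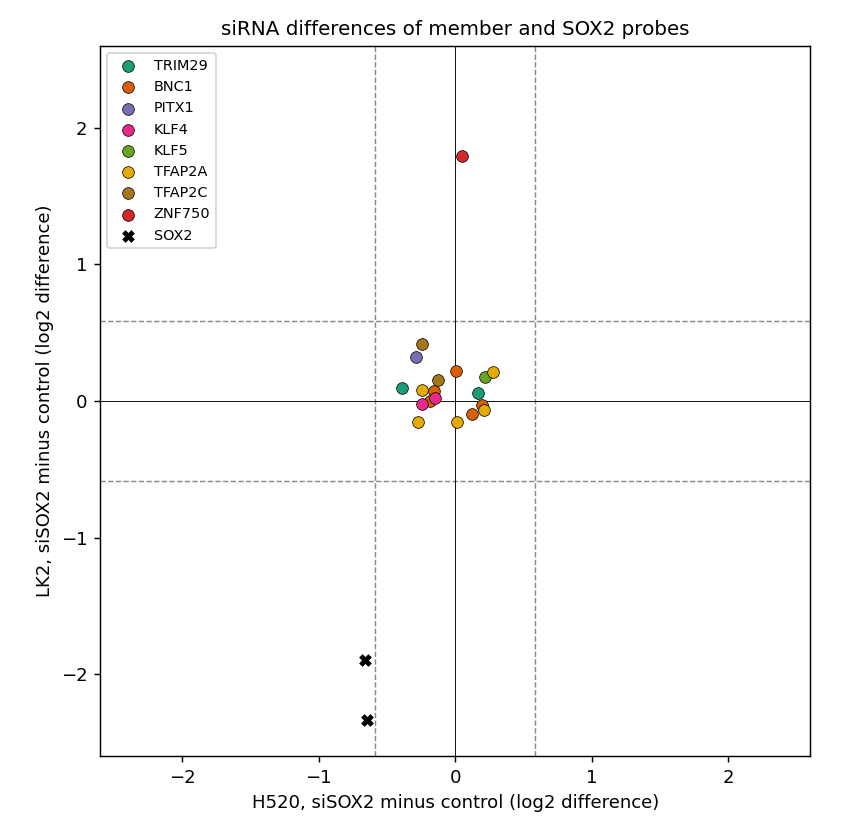
Log2 difference, siSOX2 minus control, in H520 (horizontal) and LK2 (vertical) for each member probe and the 2 SOX2 probes, with dashed lines at 1.5-fold. The SOX2 probes lie lower in both lines, ZNF750 lies at 0.05 and 1.79, and the other 18 member probes lie inside the dashed square.

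Between the lines 10 of the 19 member probes passed the test and 9 did not. With both treatments in the fit, 6 member probes were called higher in LK2 and 4 higher in H520, where limma called 9.37% of all probes higher in LK2 and 9.86% higher in H520. All member probes have a gene name, and probes with a name differed between the lines more often than all probes did. In the fit over those 28096 probes alone, 3719 were called higher in LK2 and 3676 higher in H520, and 9 member probes were called. On control arrays alone, with no test, 3 member probes were at least 1.5-fold higher in LK2 than in H520 and 4 at least 1.5-fold lower, where 5.96% of all probes were higher and 6.04% lower. Of the 28096 probes with a gene name, 2544 were higher and 2489 lower there. The median absolute difference of the 19 was 0.32, against 0.17 over all probes and 0.21 over the 28096 probes with a gene name. Members with several probes count more than once in these figures.

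ZNF750 and TFAP2C were higher in LK2. On control arrays ZNF750 was 2.84-fold higher, and over both treatments it was higher by 2.38 ± 0.29 (limma, adjusted p = 0.000159), although with a robust variance prior the call is lost (adjusted p = 0.32). The 2 TFAP2C probes were 1.88-fold and 1.75-fold higher on control arrays, and higher by 1.05 ± 0.12 and 1.14 ± 0.15 over both treatments (limma, adjusted p = 8.35e-05 and 0.000256). The 2 LK2 arrays lay above both H520 arrays for each of these 3 probes.

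KLF4 was also higher in LK2 by both probes. The estimates were 0.40 ± 0.11 and 0.67 ± 0.11 (limma, adjusted p = 0.0287 and 0.0016), and with quantile normalization the first is not called (adjusted p = 0.129). KLF5 was at 0.15 ± 0.11 and did not pass (limma, adjusted p = 0.429). Of the 5 BNC1 probes, 1 was higher in LK2 by 0.43 ± 0.11 (limma, adjusted p = 0.0232), and the estimates of the other 4 ran from -0.20 to 0.36 without a call.

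TRIM29 was lower in LK2 by both probes. On control arrays its probes differed by -1.40 and -0.74, and over both treatments TRIM29 fell by 1.16 ± 0.13 and 0.79 ± 0.11 in LK2 relative to H520 (limma, adjusted p = 9.97e-05 and 0.00039). For PITX1 the difference was -0.16 on siSOX2 arrays and -0.76 on control arrays. Its estimate of -0.46 ± 0.14 passed narrowly (limma, adjusted p = 0.0489), and the call is lost without the probes that have no gene name (adjusted p = 0.0656), with a robust variance prior (adjusted p = 0.0765), with quantile normalization (adjusted p = 0.153) or with the siRNA left out of the model (adjusted p = 0.0955).

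The TFAP2A difference between the lines depended on the probe. The probe of accession NM_001042425 stood at -0.31 with siSOX2 and -0.25 with control in LK2, against 0.86 and 0.66 in H520. The estimate was -1.04 ± 0.12 (limma, adjusted p = 8.49e-05). The 2 probes of NM_003220 were at -0.23 and -0.34, and those of NM_001032280 at -0.29 and 0.31, with none called. The start regions of TFAP2A printed above are some distance apart in the gene, but the table does not pair them with these accessions.

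**Figure D3:**
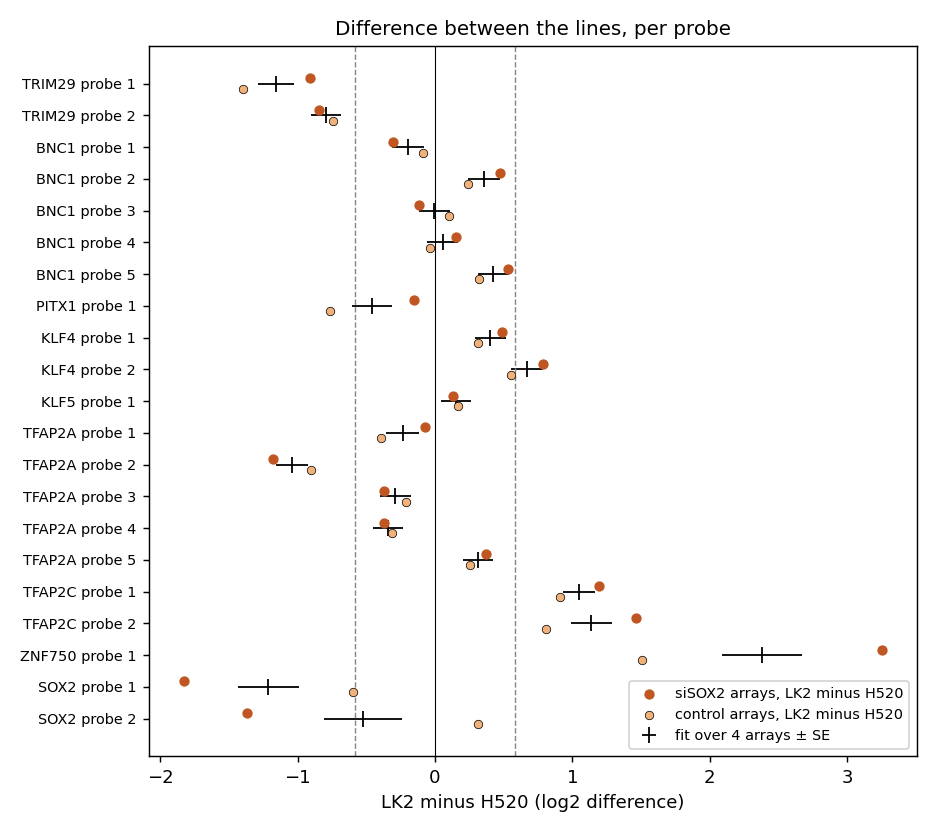
Log2 difference, LK2 minus H520, for each member probe and the SOX2 probes: dark points for the siSOX2 arrays, pale points for the control arrays, and a bar with its standard error for the fit over 4 arrays. TRIM29 and 1 TFAP2A probe lie to the left, TFAP2C and ZNF750 to the right, and the 2 ZNF750 points lie furthest apart, at 3.25 with siSOX2 and 1.51 with control.

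Genes related to the members were read from 8 lists with 152 measured genes and 241 probes. All of these probes have a gene name, while shares given over all probes include probes without one. Of the 28096 named probes, 253 were at least 1.5-fold higher and 329 lower with siSOX2 in H520, and 609 and 407 in LK2. The lists were written with earlier results of these data known, and 1 of them holds SOX2, the targeted gene. Of the 241 probes, 4 were called for the siRNA over both lines: DLX3, MAF and SFN higher and SOX2 lower. Over all probes 0.191% were called higher and 0.172% lower. Given how the lists were made, these calls are no independent evidence about such genes. MAF, a transcription factor of epidermal differentiation, was at 0.48 with siSOX2 and -0.63 with control in H520, and at 0.68 and -0.48 in LK2. It rose by 1.14 ± 0.11 (limma, adjusted p = 0.0029, higher in 2 of 2 lines). A second MAF probe did not share this, at -0.15 in H520 and 0.04 in LK2. DLX3, a homeobox target of p63, rose by 1.42 ± 0.14 (limma, adjusted p = 0.00308), and SFN, a p53 target that p63 is known to repress, by 1.37 ± 0.16 (limma, adjusted p = 0.00707). The calls of all 3 genes are lost in the fit over gene means, with quantile normalization and with line left out of the model. That of SFN is also lost with a robust variance prior (limma, adjusted p = 0.106). DLX3 and SFN have 1 probe each, so gene means leave their estimates unchanged, while that of MAF falls to 0.54.

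Among other epidermal and squamous regulators, 30 of 32 genes were measured, by 48 probes, of which 2 (DLX3 and MAF) were called higher and 1 (SOX2) lower. The median difference with siSOX2 was 0.04 in H520 and was 0.05 in LK2. CEBPB, a CCAAT-binding factor of differentiating keratinocytes, was at 0.27 in H520 and 1.09 in LK2 and was not called. On control arrays DLX5 was higher in LK2 by 3.75 and HES1, a Notch effector, by 3.17, while DLX3 was at -2.36.

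Among family relatives of the members, 20 of 23 genes were measured by 27 probes, and 0 were called for the siRNA in either direction. Their median was 0.07 for H520 and 0.00 for LK2. KLF6 was at 0.07 in H520 and 0.83 in LK2, KLF10 at 0.50 and 0.15, and KLF12 at 0.09 and 0.44. The values of KLF10 and KLF12 are means of unlike probes. Those of KLF12 were at 0.27 and -0.09 in H520 and at 0.75 and 0.13 in LK2. Those of KLF10 ran from -0.04 to 0.32 in LK2. Between the lines 5 of the 27 probes were called higher in LK2 and 0 higher in H520, where 9.37% and 9.86% of all probes were. KLF9, KLF15 and KLF13 led on control arrays, at 1.86, 1.20 and 0.73.

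Of 30 p63 target and basal squamous genes, 28 were measured by 53 probes, with 1 probe (SFN) called higher and 0 lower. The median was -0.07 for H520 and 0.02 for LK2. The integrin gene ITGA6 was at -0.20 and -0.26, and ADH7 at -0.25 and -0.28, neither of them called. At 1.5-fold 0.59% of all probes were higher and 0.742% lower in H520, and 1.5% and 0.93% in LK2. Of the 53 probes, 3 were higher and 1 lower in H520, and 3 higher and 0 lower in LK2. Among them 1 of the 2 CDKN1A probes was at -0.49 in H520 and 1.02 in LK2, a probe of the Notch ligand gene JAG2 at -0.50 and 0.69, and PERP, a desmosomal p63 target, at -0.80 and 0.10. Between the lines 11 of the 53 probes were called higher in LK2 and 5 higher in H520, against the same 9.37% and 9.86% of all probes. CDKN1A, the p21 gene, was higher in LK2 controls by 2.68, a mean of 2 unlike probes of which 1 was at 5.39. The desmosome gene DSC3 was higher by 1.22, a mean of probes at 1.96 and 0.49, while SFN was at -0.87. At 1.5-fold on control arrays 5 of the 53 probes were higher in LK2 and 4 lower. Over all probes 5.96% were higher and 6.04% lower.

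All 27 genes listed as downstream of ZNF750 and KLF4 in terminal differentiation were measured, by 34 probes. In LK2 0 of the 34 were at least 1.5-fold higher and 0 lower, where 1.5% of all probes were higher and 0.93% lower, so the count is near that of all probes. Their median there was 0.00, and in H520 it was -0.04. EVPL, which encodes envoplakin, was at 0.28 in H520 and 0.34 in LK2, FLG at -0.19 and -0.12, and SPRR2A at -0.14 in both. TGM3, which encodes an epidermal transglutaminase, was the 1 probe past 1.5-fold in H520, at 0.73, and was at -0.21 in LK2. None was called over both lines. On control arrays CNFN, the cornifelin gene, was at -2.37 and TGM3 at -1.66 in LK2 relative to H520, opposite in sign to ZNF750. KRT10 was at 0.45, with the sign of ZNF750. The median of the 34 probes in that comparison was -0.07. At 1.5-fold 0 of them were higher in LK2 and 2 lower, where 5.96% of all probes were higher and 6.04% lower. Whether these probes carry signal in the lines cannot be read from the values.

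The 5 genes whose values over the 4 arrays lay nearest to those of ZNF750, by Euclidean distance after centring each gene on its own mean, were ENC1, BGN, MT3, CTH and TWIST1, at distances of 0.25 to 0.50. The gene to match was chosen after its values were seen, since TP63 had none. ENC1 was at -0.02 in H520 and 1.97 in LK2, the proteoglycan gene BGN at 0.22 and 1.997, the metallothionein gene MT3 at 0.14 and 1.81, CTH of cysteine synthesis at -0.00 and 1.24, and the mesenchymal factor TWIST1 at -0.30 and 1.58. All 5 were higher in LK2 than in H520 on control arrays, by 1.18 to 1.95. The siRNA and line differences of these genes follow from their choice by nearness to ZNF750 and are no further observation. Likeness over 4 arrays is a description only.

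Markers of other cell types moved beside ZNF750 in LK2 in part. Of 25 probes for 15 mesenchymal genes, 4 were at least 1.5-fold higher in LK2 and 0 lower, against 1.5% and 0.93% of all probes. These were 2 probes of SNAI2, with a mean of 1.28, 1 of TWIST1 and 1 of LUM, whose other probe was at 0.11. In H520 0 were higher and 2, both of VIM, lower. Glandular and airway genes had 3 of 19 probes lower in LK2, of FOXA1, FOXA2 and TFF3, and 0 higher. The FOXA2 probe was at -1.39 in LK2, while the others of that gene were at 0.10 and -0.23. Neuroendocrine genes had 1 of 12 probes higher in LK2, and immune markers 1 of 23, against the same 1.5% of all probes. In H520 3 neuroendocrine probes were lower, against 0.742% of all probes. On control arrays 5 mesenchymal probes were higher in LK2 and 2 lower at 1.5-fold, where 5.96% of all probes were higher and 6.04% lower. CDH2, which encodes N-cadherin, was at 2.88, while the VIM probes were at -1.80 and -1.16. TFF3 was at -3.04. The part of these in the members' values was not tested, and no marker's absence can be read from centred values, so the labelled cell type was not checked by level.

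**Figure D4:**
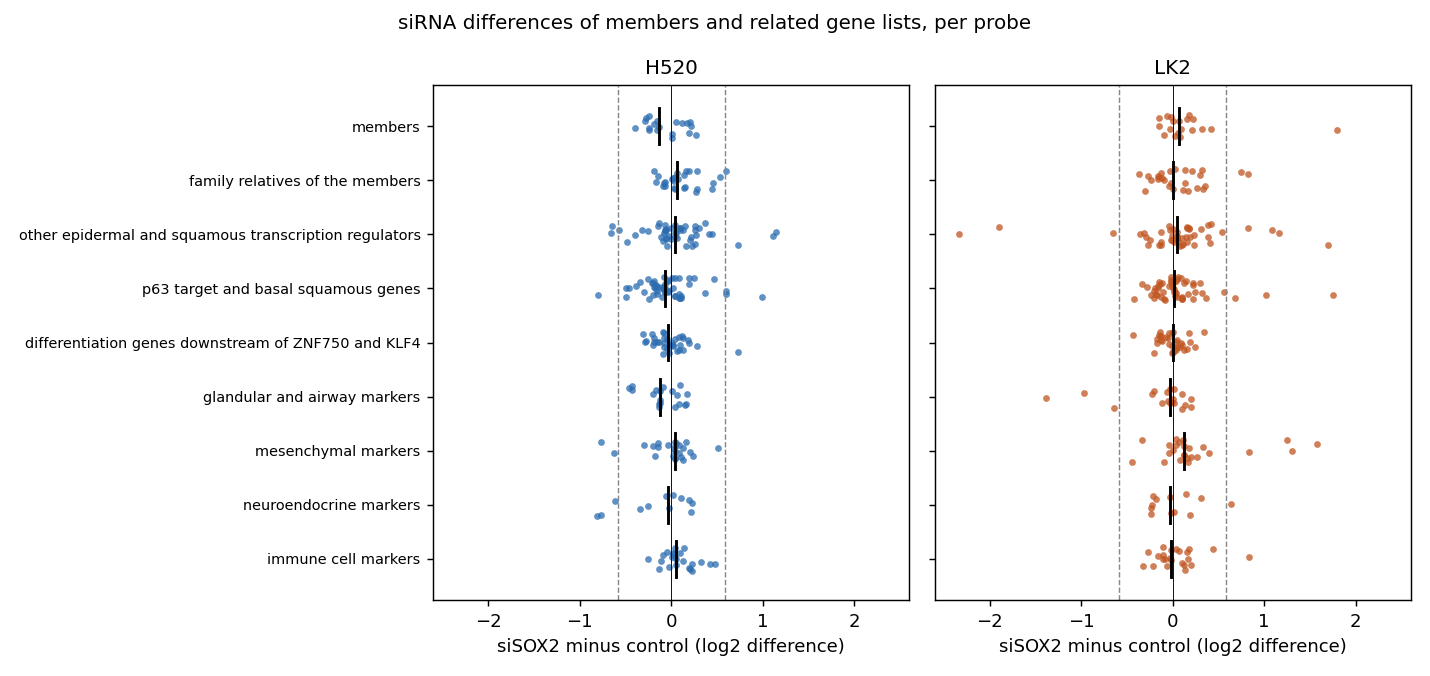
Log2 difference, siSOX2 minus control, of every probe of the members and of the 8 related lists in H520 (left) and LK2 (right), with a black bar at each median and dashed lines at 1.5-fold. The medians lie between -0.13 and 0.12, and the single member probe beyond the dashed lines is that of ZNF750 in LK2.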

How the data were processed

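RNA of 4 samples was hybridised to 1 array each, and the number of arrays limits precision. The authors deposited processed log2 values for 48801 probes; for background correction, normalization and baseline, no method is stated in the labels or headers. The 4 columns share a mean of 0.00475, with medians of 0.00118 (H520 siSOX2), 0.000149 (H520 control), -0.000497 (LK2 siSOX2) and 0.000493 (LK2 control). The baseline cancels in differences and stays unknown. The spread of values was larger in the LK2 arrays (SD 0.432 and 0.414) than in the H520 arrays (0.193 and 0.191). A second deposited table holds 4 scanner columns whose names match no sample. They entered no result and were read only to settle the log base: the best matching pair of differences had an absolute correlation of 0.994 and a slope of 0.896, the second 0.993 and 1.06, nearer to 1 (log2) than to 0.693 (natural log). Each column was tied to its array by the identifier in the header.

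Of the probes, 28096 have 1 gene symbol in the platform annotation, 13 have several and 20692 are not listed. Of the named ones 28057 matched RefSeq (GRCh38.p14) by Entrez identifier, and 0 symbols changed. Probes of 1 gene were kept apart for members, numbered in order of identifier, and averaged for the named genes of lists.

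limma 3.58.1 in R 4.3.3 fitted line and siRNA to all probes, pairing arrays by the line in their labels, with Benjamini-Hochberg adjustment over all probes and two-sided p-values. The fit had 9.35 prior degrees of freedom. That prior is poorly determined with 1 residual degree of freedom. In 1 simulated data set, with equal noise and equal effects in both lines, false calls exceeded the nominal rate. The reason for this was not tested. How often the fit calls a probe whose response differs in size between the lines was not tested. The first SOX2 probe, at -0.66 in H520 and -1.89 in LK2, was called (limma, adjusted p = 0.0462). The second, at -0.65 and -2.33, was not (limma, adjusted p = 0.0684). An uncalled member probe may still have changed. Members and lists were chosen with earlier results of these data known. Named genes were all members, SOX2, and per list the 3 with the largest mean siRNA difference of equal sign in both lines and the 3 with the largest line difference on controls. Not all of the latter are given in the text. Alternatives were gene means, other variance priors, named probes alone, other scaling, the other factor left out of the model and a 2-fold threshold.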

Additional observations from a re-analysis of the deposited data

Results flagged for a closer look

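PITX1 and TFAP2C were flagged because every probe of the gene was lower with siSOX2 in H520 and higher with siSOX2 in LK2. How many genes outside the set do the same was not counted. The LK2 difference minus the H520 difference was 0.61 for PITX1, from 1 probe, and 0.47 for TFAP2C, the mean of 2 probes. These differences between the lines were not tested, since each response comes from 1 pair of arrays.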

How the results depend on the processing

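The count of member probes called for the siRNA over both lines was 0 under every alternative run: gene means, a variance trend, a robust prior, named probes only, arrays centred on their medians, quantile normalization and line left out of the model. Over all features the same alternatives moved the number of siRNA calls: 93 probes higher and 84 lower in the fit as reported, 136 and 112 with a variance trend, 56 and 52 with a robust prior, 25 and 26 over named probes, 117 and 98 with centred arrays, 0 with quantile normalization or without line in the model, and 1 gene with gene means. For the line difference 10 member probes were called, and 8 to 12 under the alternatives per probe, which called 6718 to 9849 of all probes tested. With gene means 4 of the 8 measured member genes were called, against 5160 of all 18852 genes. On control arrays 7 member probes passed 1.5-fold and 2 passed 2-fold, against 5860 and 2426 of all 48801 probes. With gene means 4 member genes passed 1.5-fold there, against 3323 of all 18852 genes. The counts within H520 (0) and LK2 (1) did not move. Quantile normalization turned 3 uncalled siRNA estimates, PITX1 to -0.0796 and the TFAP2C probes to -0.0489 and -0.0265. It forces the centred values of both lines to 1 spread. The H520 pair and the LK2 pair taken alone allow no test, so they gave no count of adjusted calls. No paired analysis was possible by replicate number because no array has one. Signal over background was not available, so a flat probe and an unexpressed gene cannot be told apart.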
